A study of Mus musculus with 12 samples.

Results

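Nicotinamide nucleotide transhydrogenase (Nnt) and 9 antioxidant enzyme genes (Gsr, Txnrd2, Txn2, Prdx3, Prdx5, Sod2, Gpx1, Gpx4 and Cat) were followed through bulk RNA sequencing of mouse hearts injured soon after birth. They are 10 of the 46983 gene symbols in each of the deposited tables, 1 table per cell fraction, and all 10 passed the filter on low values in each fraction. The set was chosen by the normalized read counts of the cardiomyocyte libraries, because Nnt was higher there in Wls fl/fl hearts. The genotype difference within cardiomyocytes is therefore given below as a description with no test.

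Each of the 4 groups held 3 libraries. CM Wls fl/fl and NonCM Wls fl/fl libraries came from MCM/+ Wls fl/fl hearts, and CM control and NonCM control libraries from MCM/+ hearts. CM is the cardiomyocyte fraction, and NonCM is the fraction of the remaining heart cells, which the labels call cardiac interstitial cells (spelled Interstitual there). MCM is the usual name of MerCreMer, a Cre recombinase that works after tamoxifen. The labels name no promoter for it, but in the most used mice of that name the alpha myosin heavy chain promoter drives it in cardiomyocytes. All mice carried MCM/+, received 3 tamoxifen doses on postnatal days 1 to 3, underwent myocardial infarction on postnatal day 2, and were sampled 2 weeks after surgery, although the labels call the cells adult. Wls encodes the carrier that takes Wnt proteins to the cell surface, and the genotype comparison asks what its targeting in cardiomyocytes does to each fraction. No Wls fl/fl heart without MCM and no uninjured heart was analysed here. The strain label is BL6/C57 in every group and gives no substrain. As background, C57BL/6J mice carry a deletion of several Nnt exons that other C57BL/6 substrains lack, and read counts per gene do not tell the alleles apart.

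Nnt sits in the inner mitochondrial membrane and uses the proton gradient to pass electrons from NADH to NADP+, which supplies the matrix with NADPH. Glutathione reductase (Gsr) and mitochondrial thioredoxin reductase (Txnrd2) spend that NADPH to keep glutathione and thioredoxin 2 (Txn2) reduced, and peroxiredoxins and glutathione peroxidases draw on these carriers to remove peroxides. Superoxide dismutase 2 (Sod2) makes the hydrogen peroxide from superoxide, and catalase (Cat), which is chiefly a peroxisomal enzyme, breaks hydrogen peroxide down without NADPH. Cardiomyocytes are packed with mitochondria and depend on this chain.

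Of the 10 proteins, Gpx1, Gpx4 and Txnrd2 are selenoproteins, which read a TGA codon in frame as selenocysteine, the reactive residue of each enzyme. The bases around that codon are shown because among these 3 genes Gpx1 alone had higher values in NonCM libraries. They are from GENCODE M21 on build GRCm38, written 5′ to 3′ on the plus strand, with the selenocysteine codon in capitals. The codon lies at chr9:108339451-108339453 in Gpx1 (codon 47 of 201 in transcript Gpx1-201), at chr10:80054737-80054739 in Gpx4 (codon 73 of 197 in Gpx4-202), and at chr16:18477772-18477774 in Txnrd2, where it is codon 526 of 527 in Txnrd2-203 and so the last but one of the protein.
Gpx1: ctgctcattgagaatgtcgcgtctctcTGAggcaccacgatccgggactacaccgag
Gpx4: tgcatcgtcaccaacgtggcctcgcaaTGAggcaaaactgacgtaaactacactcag
Txnrd2: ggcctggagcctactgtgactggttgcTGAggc

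Values in each fraction are normalized read counts, that is gene counts divided by a size factor per library, and the CM and NonCM tables were scaled apart. Recovered reads ranged from 1160146 to 10281214 per library, with NonCM control replicate 1 the shallowest, and 1 read there equals a normalized read count of 5.54. The expression profile of each replicate 3 was close to a weighted mean of replicates 1 and 2 of its group, with mean squared residuals of 1.02 to 1.18 times the counting variance, against 1.11 to 2.09 times for the other replicates (in CM Wls fl/fl replicate 1, at 1.11, lay closer than replicate 3, at 1.14). Counts of calls without replicate 3 are therefore given for each comparison. The series describes 3 hearts per condition, and p-values cover no spread beyond that between these libraries. Wls itself averaged 80.9 ± 20.5 in CM Wls fl/fl and 218 ± 22.1 in CM control libraries (SD, n = 3 each), a log2 difference of −1.45 (limma adjusted p = 0.00389, and 0.0896 without replicate 3). Its NonCM mean was 332 ± 21.4 in Wls fl/fl and 403 ± 26.9 in control (−0.28, limma adjusted p = 0.0831, edgeR 0.0333 and limma-voom 0.0368, and 0.580 by limma without replicate 3). Cardiomyocyte RNA was present in each fraction: 28 mature cardiomyocyte markers took 13.2 ± 0.67% of reads in CM Wls fl/fl and 13.0 ± 0.118% in CM control libraries. They took 7.48 ± 0.148% in NonCM Wls fl/fl and 8.85 ± 0.411% in NonCM control libraries, so the NonCM fraction was not free of cardiomyocyte RNA.

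Nnt was higher in CM Wls fl/fl than in CM control libraries, and its groups stood far apart. Its normalized read count was 4263, 4487 and 4241 in the 3 CM Wls fl/fl libraries, against 3448, 3402 and 3450 in CM control replicates 1 to 3. Every Wls fl/fl library lay above every control. The means were 4330 ± 136 in Wls fl/fl and 3433 ± 26.8 in control (SD, n = 3 each), which is 26.1% higher, or a log2 difference of 0.33 (SE 0.04, 95% interval 0.24 to 0.43). Leaving out any one library gave log2 differences of 0.31 to 0.35, and leaving out replicate 3 of each genotype gave 0.35. Nnt was the 1 member called by limma in CM, where 11 of 11944 genes (0.0921%) were called, and since this difference chose the set, nothing is read from that call. The share of cardiomyocyte markers moved little between the CM groups. With the summed share of fibroblast, macrophage, endothelial, and smooth muscle and pericyte markers as a covariate, the Nnt difference was 0.34.

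Among the enzymes that Nnt supplies with NADPH, the reductases differed little in CM. Gsr averaged 146 ± 13.2 in CM Wls fl/fl and 148 ± 8.04 in CM control libraries (log2 difference −0.02, 95% interval −0.24 to 0.19). Txnrd2 averaged 84.5 ± 6.15 in Wls fl/fl and 81.5 ± 7.78 in control (0.05, −0.22 to 0.32). The groups overlapped for each reductase. They also overlapped for Txn2, the thioredoxin that Txnrd2 reduces, which averaged 721 ± 72.8 in Wls fl/fl and 731 ± 43.8 in control (−0.02, −0.19 to 0.14).

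The peroxiredoxins, which are thiol peroxidases, did not move as 1 group in CM. Prdx5, found in mitochondria, peroxisomes and cytosol, had 1342, 1339 and 1306 normalized read counts in the 3 CM Wls fl/fl libraries, against 1144, 1141 and 1178 in CM control replicates 1 to 3. These groups did not overlap, and the log2 difference was 0.20 (SE 0.05, 95% interval 0.10 to 0.30). Prdx3, the peroxiredoxin confined to mitochondria, averaged 1310 ± 125 in Wls fl/fl and 1283 ± 26.4 in control (0.03, −0.11 to 0.17), with overlapping groups. Prdx5 shares 409 exon bases with Trmt112 on the opposite strand, and how the counting used strand is not given in the sources used here. Trmt112 itself averaged 34.0 ± 6.48 in CM Wls fl/fl and 30.6 ± 5.3 in CM control libraries. Whether reads of Trmt112 were counted for Prdx5 was not tested.

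Sod2, the matrix superoxide dismutase, had 3936, 4075 and 3905 normalized read counts in the 3 CM Wls fl/fl libraries, against 3787, 3590 and 3564 in CM control replicates 1 to 3. The groups did not overlap, and the log2 difference was 0.12 (SE 0.04, 95% interval 0.03 to 0.22). Cat had 1861, 1823 and 1845 in Wls fl/fl and 1994, 1879 and 2032 in control (−0.09, −0.20 to 0.01), and here all Wls fl/fl libraries lay below all controls. The glutathione peroxidases overlapped between genotypes. Gpx1 averaged 196 ± 10.7 in Wls fl/fl and 203 ± 17.2 in control, and Gpx4, which removes lipid hydroperoxides, 476 ± 24 in Wls fl/fl and 463 ± 22.9 in control. In CM, then, Nnt, Prdx5 and Sod2 lay wholly above control, Cat lay wholly below, and 6 members overlapped, against 7.97% of all genes wholly above and 7.05% wholly below. Since the same libraries chose the set, nothing is read from these counts. The authors' deposited table gives log2 fold changes of 0.33 for Nnt, 0.20 for Prdx5 and 0.12 for Sod2 in CM.

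**Figure D1:**
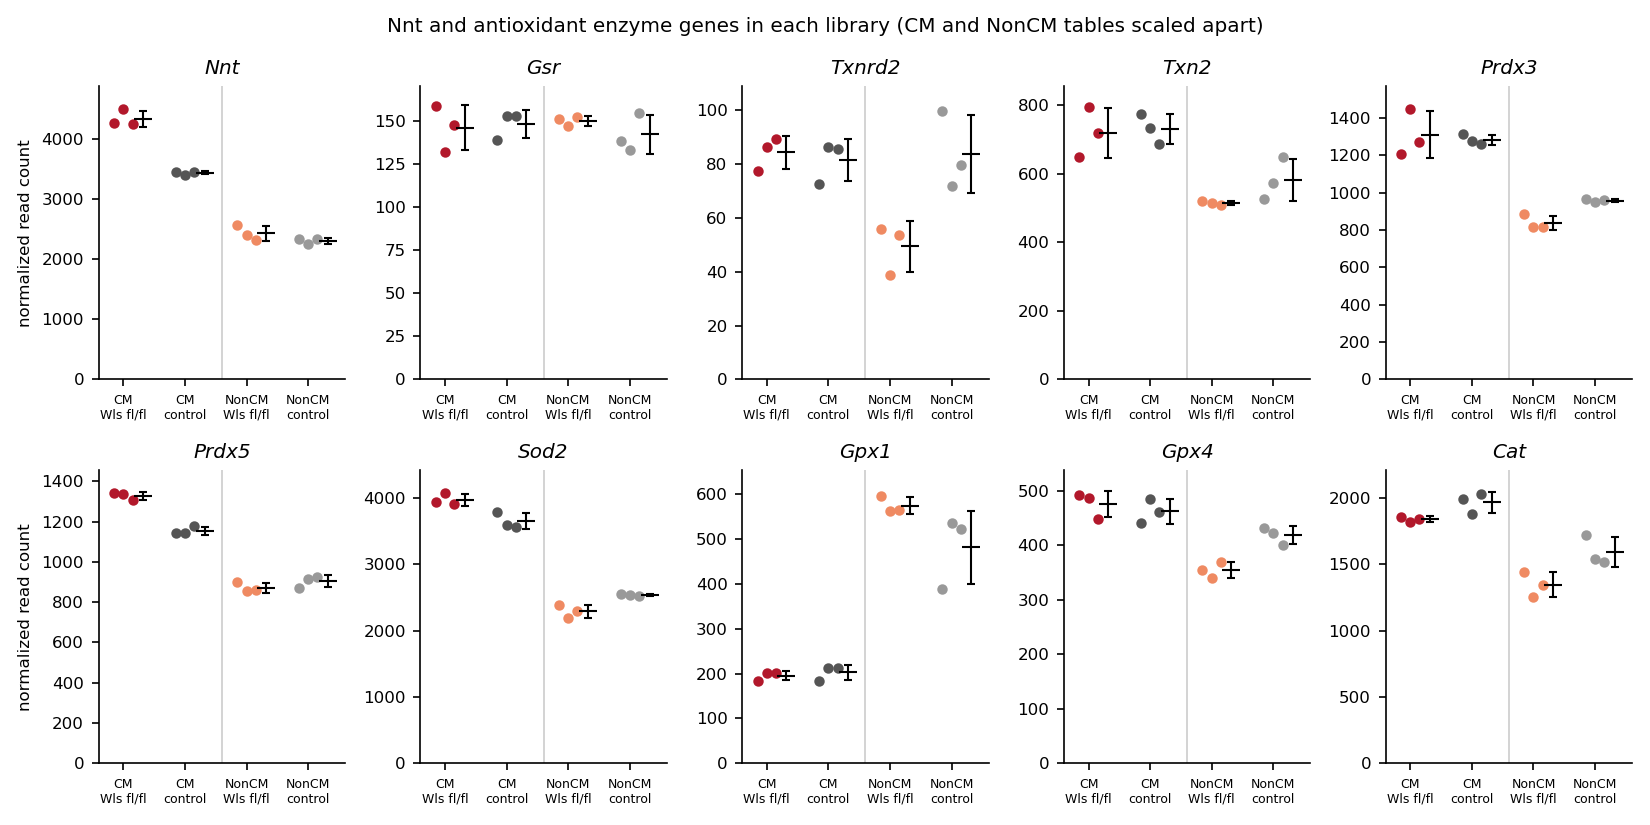
Normalized read count (vertical axes, from 0) of the 10 genes in each library. Points are libraries 1 to 3 of each group, bars show the mean ± SD (n = 3), and the grey line parts the CM from the NonCM table, which were scaled apart. Nnt stands at 4241 to 4487 in CM Wls fl/fl and 3402 to 3450 in CM control, while its NonCM groups overlap.

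The rule that chose the genes used no NonCM values, so test results are given for the NonCM genotype comparison. They are not fully independent of that choice. Earlier results of these data were known when the genes were chosen, both fractions came from each mouse, and NonCM held cardiomyocyte RNA. By limma 0 of the 10 passed an adjusted p of 0.05, in a comparison that called 4.51% of 13271 genes. At an unadjusted p under 0.05, 5 members were lower and 1 was higher. At that limit 8.83% of all genes were lower, and 1393 of the 13271 were higher. EdgeR on the recovered reads called 5 members lower (Txnrd2, Txn2, Prdx3, Gpx4 and Cat), where it called 5.16% of all genes lower. Limma-voom called these 5 and Sod2 lower, where it called 5.46% of all genes lower. DESeq2 called 0 members, where it called 298 of 9966 genes lower. No test called any member higher. The median log2 difference was −0.16 over the members and 0.02 over all genes tested. Without replicate 3 of each genotype, limma and edgeR called 0 members, with limma estimates from −0.85 for Txnrd2 to 0.35 for Gpx1. The limma count also depended on the shallowest library, NonCM control replicate 1. Without it limma called 4 members lower (Txnrd2, Txn2, Prdx3 and Gpx4), where it called 749 of 13271 genes lower. Without NonCM control replicate 2 it called Txnrd2 alone, and without any other single library it called 0 members.

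Nnt was not separated between genotypes in NonCM. It had 2560, 2390 and 2324 normalized read counts in NonCM Wls fl/fl replicates 1 to 3, against 2328, 2243 and 2340 in NonCM control replicates 1 to 3. The groups overlapped. The log2 difference was 0.07 (SE 0.05, 95% interval −0.04 to 0.19, limma adjusted p = 0.482). Gsr was likewise not separated, at 150 ± 2.87 in NonCM Wls fl/fl and 142 ± 11.2 in NonCM control libraries (0.08, −0.13 to 0.29).

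Limma called no gene of the thioredoxin chain in NonCM. The widest difference of the chain, that of Txnrd2, turned sign with the cardiomyocyte marker share as a covariate (0.23, limma adjusted p = 0.761). That share did not overlap between the genotypes and cannot be well separated from genotype, so nothing is read from the turn. Txnrd2 had 56.0, 38.6 and 53.8 normalized read counts in NonCM Wls fl/fl replicates 1 to 3, against 99.8, 71.7 and 79.7 in NonCM control replicates 1 to 3. All Wls fl/fl libraries lay below all controls, with the log2 difference furthest from 0 among the members, −0.75 (SE 0.19, 95% interval −1.18 to −0.32, limma adjusted p = 0.0591, edgeR adjusted p = 0.0168). These values rest on few reads, 88, 58 and 72 in Wls fl/fl and 18, 94 and 110 in control. Limma called Txnrd2 without NonCM control replicate 1 (−0.62, adjusted p = 0.0242) or replicate 2 (−0.86, adjusted p = 0.0483).

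Txn2 had 521, 514 and 510 normalized read counts in NonCM Wls fl/fl replicates 1 to 3, against 527, 574 and 649 in NonCM control replicates 1 to 3. The groups just missed overlapping, and the log2 difference of −0.17 (SE 0.08, limma adjusted p = 0.271) depended on the library. It was −0.09 without control replicate 3 and −0.24 without control replicate 1, where limma called it (adjusted p = 0.0216). Prdx3 had 883, 814 and 814 in Wls fl/fl against 965, 949 and 960 in control (−0.19, SE 0.05, limma adjusted p = 0.0797, edgeR adjusted p = 0.0293). Prdx5 was not separated, at 871 ± 24.1 in Wls fl/fl and 904 ± 29.6 in control (−0.05, 95% interval −0.17 to 0.07).

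Sod2 lay below control in NonCM, the other side from CM, with 2385, 2191 and 2288 normalized read counts in NonCM Wls fl/fl replicates 1 to 3, against 2550, 2543 and 2514 in NonCM control replicates 1 to 3. The log2 difference was −0.15 (SE 0.05, 95% interval −0.26 to −0.04, limma adjusted p = 0.120). Cat had 1442, 1255 and 1343 in Wls fl/fl against 1724, 1539 and 1522 in control, again without overlap (−0.24, SE 0.07, limma adjusted p = 0.0852, edgeR adjusted p = 0.0336). Neither passed by limma, and edgeR called Cat but not Sod2.

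The glutathione peroxidases lay on opposite sides of control in NonCM, and limma called neither. Gpx4 had 355, 341 and 369 normalized read counts in NonCM Wls fl/fl replicates 1 to 3, against 432, 423 and 401 in NonCM control replicates 1 to 3, all Wls fl/fl libraries below all controls (log2 difference −0.24, SE 0.07, limma adjusted p = 0.0786, edgeR adjusted p = 0.0325). Gpx1 had 596, 564 and 565 in Wls fl/fl against 388, 535 and 522 in control, all Wls fl/fl libraries above (0.27, SE 0.11, limma adjusted p = 0.235). The low Gpx1 value of 388 is that of the shallowest library and rests on 70 reads, and without it the difference was 0.12. Gpx4 transcripts match an annotated copy, Gpx4-ps2, over 733 bases at 99.7% identity, so reads could be split between them, and its values are uncertain to that extent. In all, 6 members lay wholly below control, 1 wholly above and 3 overlapped, against 12.6% of all genes wholly below and 13.9% wholly above.

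**Figure D2:**
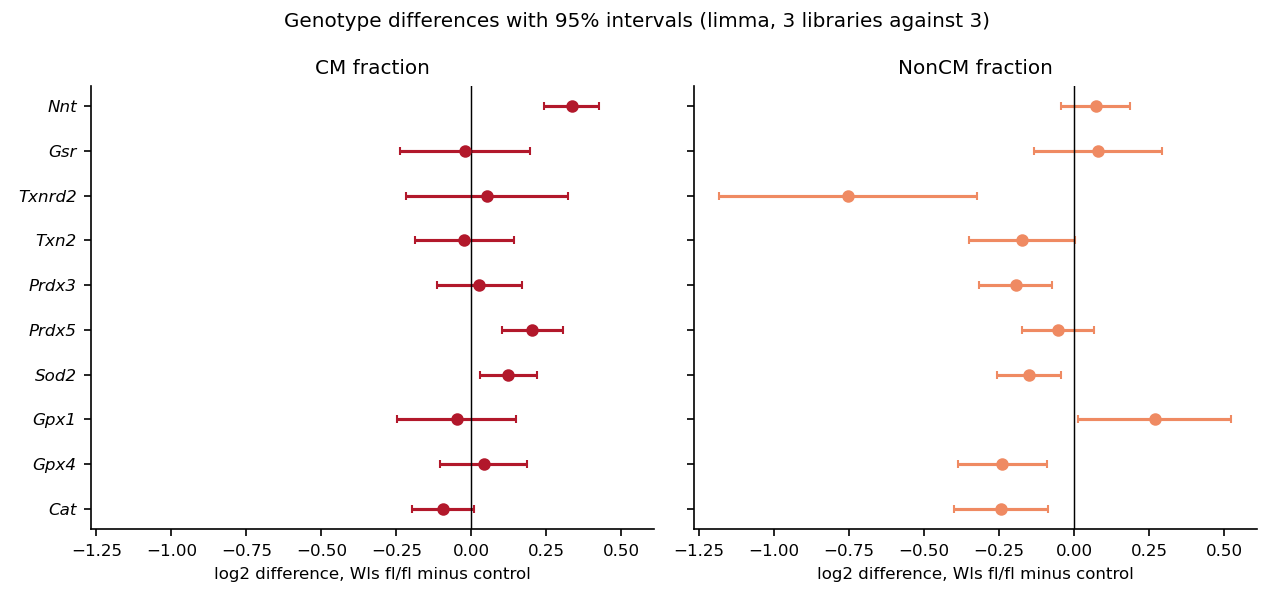
Log2 difference of normalized read counts, Wls fl/fl minus control (horizontal axis), for each gene in the CM and NonCM fractions, as limma estimates with 95% intervals from 3 libraries against 3. In CM the intervals of Nnt (0.24 to 0.43), Prdx5 and Sod2 lie above 0, and in NonCM those of Txnrd2, Prdx3, Sod2, Gpx4 and Cat lie below 0 and that of Gpx1 above it.

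Other mitochondrial and cell type genes moved in the same NonCM comparison. Of 24 mitochondrial housekeeping genes, which encode import, chaperone, carrier and fusion proteins, 22 were lower, limma called 6 of them lower and 0 higher, and their median log2 difference was −0.19. All 28 mature cardiomyocyte markers were lower, 21 of them called, with a median of −0.27. Of 12 fibroblast markers 8 were called higher, with a median of 0.49, and of 12 macrophage markers 3 were called higher, with a median of 0.37. Of 12 endothelial markers 11 were lower and 1 was called lower, 7 of the 12 passed an unadjusted p of 0.05, with a median of −0.15, and their sum was 0.243 to 0.244% of reads in NonCM Wls fl/fl against 0.264 to 0.268% in NonCM control. The marker lists summed to 7.33 to 7.63% of reads in NonCM Wls fl/fl against 8.51 to 9.31% in NonCM control for cardiomyocytes. The fibroblast markers summed to 1.77 to 1.86% in NonCM Wls fl/fl against 1.26 to 1.33% in NonCM control, and the macrophage markers to 0.193 to 0.209% in NonCM Wls fl/fl against 0.136 to 0.171% in NonCM control. No marker of these lists was without reads. With the cardiomyocyte share as a covariate, Txnrd2 (0.23) and Cat (0.14) turned to higher, Gpx1 turned to lower (−0.43), and Nnt stayed higher (0.19). In this fit limma called 0 members, and 2 passed an unadjusted p of 0.05. Because the share did not overlap between the NonCM genotypes, the fit cannot well separate it from genotype, and nothing is read from these values. The part of the other lists in the enzymes' values was not tested, and in bulk RNA fewer cells of a type cannot be told apart from less RNA per cell. In CM 19 of the 24 mitochondrial housekeeping genes were higher in Wls fl/fl, with a median log2 difference of 0.08. There 20 of the 28 cardiomyocyte markers were higher, with a median of 0.04. Limma called 0 genes of either list in CM, where 5985 of all 11944 genes tested were higher.

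**Figure D3:**
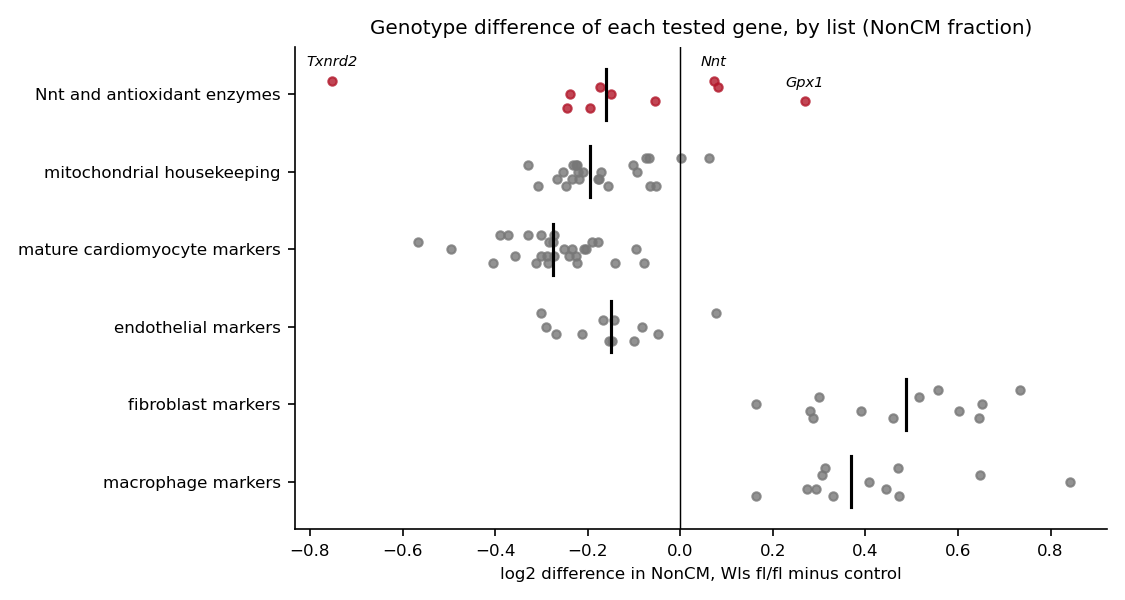
Log2 difference in NonCM, Wls fl/fl minus control (horizontal axis), of each tested gene (points) in 6 lists (rows), with the list's median as a black bar. The medians of the antioxidant enzymes (−0.16) and of mitochondrial housekeeping genes (−0.19) lie on the same side as that of cardiomyocyte markers (−0.27), with Nnt, Gsr and Gpx1 to the right of 0.

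The fraction comparison sets the level of these genes in NonCM against that in CM, in hearts in which Wls was not targeted. It used recovered reads as CPM (each gene's reads scaled to a fixed library total), scaled over all 12 libraries. Cardiomyocyte markers took 8.85 ± 0.411% of reads in NonCM control and 13.0 ± 0.118% in CM control libraries. NonCM values therefore include cardiomyocyte RNA and do not give the level in the other heart cells alone. Both fractions were collected from each mouse, but the labels do not say which libraries share one, and they were fitted as independent. In control hearts 9 of 10 members were lower in NonCM than in CM, 8 of them called by limma, and 1 was called higher. Over all 13647 genes limma called 22.4% lower and 24.2% higher. Nnt had 317, 311 and 324 CPM in NonCM control replicates 1 to 3, against 591, 576 and 589 CPM in CM control replicates 1 to 3. The groups stood far apart (log2 difference −0.88, SE 0.04, limma adjusted p = 1.4e-07), and no other member had a difference further below 0. Sod2 had 347, 353 and 348 CPM in NonCM control and 649, 608 and 609 CPM in CM control (−0.83, SE 0.05, adjusted p = 2.8e-07 by limma).

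The remaining members called lower covered each step from thioredoxin to catalase. Prdx3 averaged 132 ± 0.751 CPM in NonCM control and 219 ± 5.27 CPM in CM control (log2 difference −0.72), and Prdx5 125 ± 5.31 CPM in NonCM control and 197 ± 4.12 CPM in CM control (−0.66). Txn2 averaged 80.4 ± 9.07 CPM in NonCM control and 125 ± 7.66 CPM in CM control (−0.63), and Cat 220 ± 13.1 CPM in NonCM control and 336 ± 15.4 CPM in CM control (−0.61). Gpx4 averaged 57.7 ± 1.91 CPM in NonCM control and 78.9 ± 3.43 CPM in CM control (−0.44). Limma adjusted p was at most 3.9e-04 for these 5 genes. Gsr, at 19.6 ± 1.59 CPM in NonCM control and 25.3 ± 1.27 CPM in CM control, passed with the smallest margin (−0.35, SE 0.11, limma adjusted p = 0.0200). Its call was lost without CM control replicate 2 (−0.33, adjusted p = 0.0595), CM control replicate 3 (−0.33, adjusted p = 0.0757) or NonCM control replicate 2 (−0.31, adjusted p = 0.0691), without replicate 3 of each group (−0.39, adjusted p = 0.101), and without TMM scaling factors (−0.12, adjusted p = 0.376). Without replicate 3 the other 7 members called lower and Gpx1 were still called.

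Gpx1 was the member that rose in NonCM. It had 52.8, 74.3 and 72.3 CPM in NonCM control replicates 1 to 3, against 31.3, 35.9 and 36.4 CPM in CM control replicates 1 to 3 (log2 difference 0.91, SE 0.13, limma adjusted p = 1.8e-04), with no overlap. Txnrd2 did not pass in control hearts, at 11.5 ± 1.87 CPM in NonCM control and 13.9 ± 1.27 CPM in CM control (−0.26, 95% interval −0.59 to 0.08, limma adjusted p = 0.188). It was called without NonCM control replicate 1 (−0.37, adjusted p = 0.0417) and by edgeR (−0.38, adjusted p = 0.0388). In Wls fl/fl hearts, whose CM libraries were among those that chose the set, the difference is given with no test. It was −1.01 for Txnrd2, from 6.89 ± 1.32 CPM in NonCM Wls fl/fl and 14.8 ± 1.40 CPM in CM Wls fl/fl libraries.

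For comparison, limma called all 28 cardiomyocyte markers lower in NonCM control than in CM control, with a median of −0.83. Of 24 mitochondrial housekeeping genes 23 were lower and 21 were called lower, with a median of −0.68. The median of the members was −0.62. Without TMM factors the median over all genes moved to 0.21, and calls over all genes then numbered 5035 higher and 1635 lower, against 3299 higher and 3057 lower with them. Nnt and Sod2 stayed lower (−0.64 and −0.59), and Gpx1 stayed higher (1.15).

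**Figure D4:**
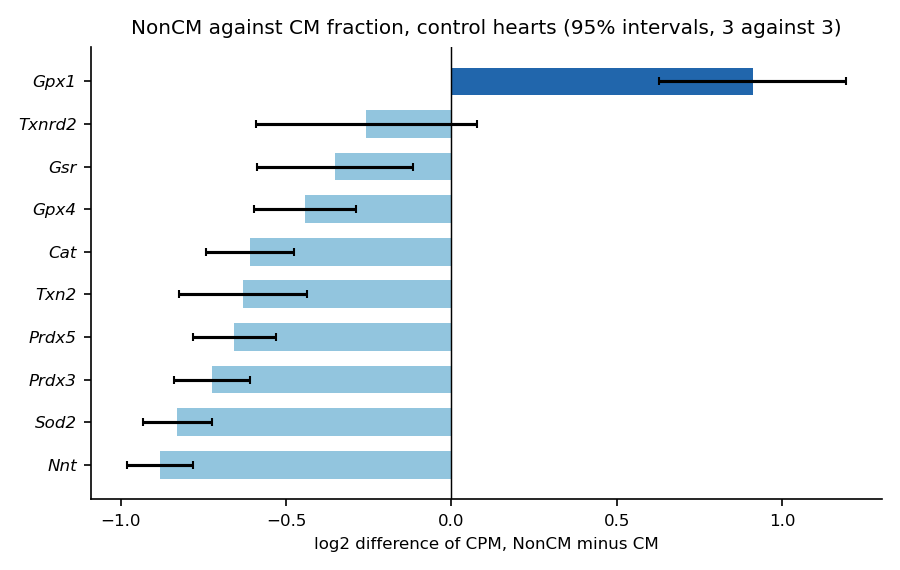
Log2 difference of CPM, NonCM minus CM in control hearts (horizontal axis), for each gene, with 95% intervals as black lines (limma, 3 libraries against 3). Nnt (−0.88) and Sod2 (−0.83) lie furthest below 0, Gpx1 lies above 0 at 0.91, and the interval of Txnrd2 includes 0.

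Per length of the longest transcript, Nnt headed the set in CM. On CPM per kilobase of the longest annotated coding transcript (3464 bases for Nnt-202), its level was 219 ± 7.63 in CM Wls fl/fl and 169 ± 2.35 in CM control libraries. In CM control it was followed by Prdx5 at 156 ± 3.26, Prdx3 at 148 ± 3.57, Cat at 128 ± 5.88 and Sod2 at 106 ± 3.98 on the same scale. Gpx4 at 79.3 ± 3.45, Txn2 at 60.8 ± 3.74, Gpx1 at 32.2 ± 2.62, Gsr at 9.46 ± 0.476 and Txnrd2 at 4.83 ± 0.442 came after. No neighbours in this CM control order overlapped. The order rests on the transcript chosen. Prdx5 was divided by 1262 bases, while its other coding transcripts have 501 to 755 bases, and which ones were expressed was not tested. In NonCM control the order began with Prdx5 at 98.7 ± 4.21, Nnt at 91.6 ± 1.78, Prdx3 at 89.3 ± 0.508 and Cat at 84.1 ± 5.03 per kilobase. There Gpx1 stood at 62.0 ± 11.1, close to Sod2 at 59.6 ± 0.55 and Gpx4 at 58.0 ± 1.92. In NonCM control the libraries of Prdx3 overlapped those of Cat, and those of Gpx1 overlapped those of Sod2 and of Gpx4. The reductases, Gsr and Txnrd2, had the lowest levels per length in each fraction. NonCM levels include cardiomyocyte RNA, whose part in this order was not tested.

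The genotype differences of NonCM and CM were set against each other in 1 limma fit of all 12 libraries, as NonCM minus CM, and called 1.41% of 13718 genes. Since this contrast holds the CM difference that chose the genes, the members' values are estimates with errors and support nothing further. Nnt had −0.28 (SE 0.07), Prdx5 −0.28 (SE 0.07), Sod2 −0.29 (SE 0.07), Gpx4 −0.30 (SE 0.09) and Txnrd2 −0.76 (SE 0.21), while Gpx1 had 0.29 (SE 0.15). Over all genes the calls numbered 39 higher and 154 lower with TMM factors, and 33 higher and 1 lower without them. Without them Nnt had −0.22 and Sod2 −0.23.

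Of 19 genes of NADPH supply, limma called 2 lower and 0 higher in NonCM Wls fl/fl hearts, and the median log2 difference was −0.01, with 9 values above 0 and 10 below. EdgeR called 2 lower and 1 higher, G6pdx, the entry enzyme of the pentose phosphate pathway, named after its values were seen (0.39, limma adjusted p = 0.0717). Idh2, the NADP-dependent isocitrate dehydrogenase of the matrix, had 4553, 4308 and 4451 normalized read counts in NonCM Wls fl/fl replicates 1 to 3, against 5649, 5725 and 5828 in NonCM control replicates 1 to 3 (log2 difference −0.37, SE 0.04, limma adjusted p = 0.00316). The groups stood far apart, and limma called Idh2 with each library left out in turn. Nadk2, the mitochondrial NAD kinase that makes NADP+, fell by 0.41 on the log2 scale (SE 0.08, limma adjusted p = 0.0252), to 292 ± 17.3 in NonCM Wls fl/fl against 389 ± 28.8 in NonCM control. In CM, limma and edgeR called 0 of the 17 genes tested from this list, and 1 passed an unadjusted p of 0.05. Idh2 differed there by −0.07 (95% interval −0.16 to 0.02).

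Outside the mitochondrion, 1 superoxide dismutase gene rose in NonCM. Sod3, the secreted superoxide dismutase, averaged 291 ± 7.72 in NonCM Wls fl/fl and 213 ± 3.1 in NonCM control libraries (log2 difference 0.44, SE 0.07, limma adjusted p = 0.0117). It was the 1 gene limma called of 21 other thioredoxin, peroxiredoxin and superoxide dismutase genes, of which edgeR called 1 higher and 1 lower.

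Genes that Nrf2, the main antioxidant transcription factor, is known to drive did not move together. In NonCM limma called 1 of 19 higher and 0 lower, and edgeR called 2 higher and 1 lower. Ftl1, the ferritin light chain, averaged 1115 ± 27.8 in NonCM Wls fl/fl and 910 ± 68.5 in NonCM control libraries (log2 difference 0.30, SE 0.06, limma adjusted p = 0.0356). In CM limma called 1 of 18 lower and 0 higher. Ces1d, a carboxylesterase, averaged 75.0 ± 16.5 in CM Wls fl/fl and 161 ± 1.76 in CM control libraries (−1.12, SE 0.14, limma adjusted p = 0.00872). Of 17 antioxidant regulators 0 were called in NonCM, where 3 passed an unadjusted p of 0.05 and edgeR called 1. The 2 of smallest p in NonCM were Ppargc1b, a coactivator of mitochondrial genes, at −0.39 (SE 0.10, adjusted p = 0.0634 by limma), and Nfe2l1, a relative of Nrf2, at −0.16 (SE 0.06, adjusted p = 0.151 by limma).

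Glutathione and selenoprotein genes gave 0 calls by limma in NonCM. Of 30 glutathione genes tested 6 passed an unadjusted p of 0.05 and edgeR called 2. Slc25a11, the oxoglutarate carrier of the inner membrane, had a log2 difference of −0.19 (limma adjusted p = 0.0760) and Glrx3, a glutaredoxin, −0.24 (limma adjusted p = 0.143). Of 20 selenoprotein and selenoprotein synthesis genes 2 passed an unadjusted p of 0.05 and edgeR called 1. Selm, selenoprotein M, had 0.35 (limma adjusted p = 0.118) and Trnau1ap, which binds the selenocysteine tRNA, −0.30 (limma adjusted p = 0.248). Among the mitochondrial housekeeping genes, the 4 called with the smallest p were Slc25a4, the heart's ADP/ATP carrier (−0.33, limma adjusted p = 0.00515), the mitofusins Mfn2 (−0.23, adjusted p = 0.0250) and Mfn1 (−0.25, adjusted p = 0.0250), and the phosphate carrier Slc25a3 (−0.21, adjusted p = 0.0292).

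The calls of these genes depended on single libraries, Idh2 apart. Without NonCM control replicate 3 or NonCM Wls fl/fl replicate 3, limma called none of Nadk2, Sod3, Ftl1, Slc25a4, Mfn2, Mfn1 and Slc25a3, and without NonCM Wls fl/fl replicate 2 only Slc25a4 of these 7. Without NonCM Wls fl/fl replicate 1, the calls of Nadk2, Ftl1, Mfn2 and Slc25a3 were also lost. Log2 differences over the libraries left out ranged from −0.45 to −0.35 for Nadk2, from 0.42 to 0.46 for Sod3 and from 0.23 to 0.34 for Ftl1. In CM the Ces1d call was lost without CM control replicate 3 or CM Wls fl/fl replicate 3, with a range of −1.27 to −0.96. With the cardiomyocyte marker share as a covariate limma called none of these 7 NonCM genes, nor Idh2 (−0.37, adjusted p = 0.0648). Nadk2 was then at −0.01 and Sod3 at 0.52, while Ftl1 (−0.05), Ppargc1b (0.21) and Nfe2l1 (0.08) turned sign. The share did not overlap between the NonCM genotypes, so nothing is read from these changes either. Without replicate 3 of each genotype limma called 0 genes of any kind in NonCM, where Idh2 had −0.36.

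The genes whose values moved most like Nnt across the 12 libraries were Taok1, Hcn2, Ccnd3, Lap3 and Tfrc, with Pearson r of 0.96, 0.92, 0.91, 0.91 and 0.90 of the deviations from the fraction mean, among 8427 genes. Each was chosen for this likeness, the libraries share the genotype groups, and no p is given. Tfrc, the transferrin receptor, averaged 4941 ± 36.3 in CM Wls fl/fl and 3199 ± 344 in CM control libraries, and 2945 ± 200 in NonCM Wls fl/fl and 2343 ± 332 in NonCM control libraries. Hcn2, a pacemaker channel, averaged 495 ± 33.5 in CM Wls fl/fl and 376 ± 5.21 in CM control. Of the other members Prdx5 (r = 0.84) and Sod2 (r = 0.47) were the most like Nnt on this measure, and Cat (r = −0.36) was the least.

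Nnt lies on chromosome 13, at 119335448 to 119408997 on the minus strand of GRCm38, the build the submitters name as mm10. Within 1 Mb of it 6 other genes were tested in CM, and limma called 0 of them. The nearest, Paip1, a regulator of translation, averaged 404 ± 22.5 in CM Wls fl/fl and 427 ± 23.4 in CM control libraries (log2 difference −0.08). Hmgcs1, of sterol synthesis, averaged 453 ± 10.2 in Wls fl/fl and 391 ± 26.7 in control (0.21, limma adjusted p = 0.434). The difference furthest from 0 was that of 4833420G17Rik, a gene at low level, with 26.1 ± 3.61 in Wls fl/fl and 56.6 ± 10.8 in control (−1.08, SE 0.19, limma adjusted p = 0.0682). In NonCM its log2 difference was −0.75, and those of the other neighbours ran from −0.23 for Mrps30 to 0.54 for Nim1k. The cause of these differences was not tested.

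Promoter windows, from 250 bases before to 50 after an annotated start, were matched from RefSeq (GRCm38.p6) for 8 of the 10 members, with 11 windows in all. The antioxidant response element core TGACNNNGC, searched on both strands, occurred in 0 of the 11 windows, against 12.4% of 32851 promoters. The GC box GGGCGG, the letters that Sp1 factors are known to bind, occurred in 10 of 11, against 35.7% of all promoters, and CCAAT in 6 of 11, against 37.4%. Some Gpx4 windows overlap, so the 11 are not independent. The windows of Sod2 and Gpx1 are shown, since the differences of these genes had opposite signs in NonCM and in the fraction comparison. Capitals mark the GC box on either strand, of which Sod2 has 4 and Gpx1 has 1, and CCAAT occurs in that of Sod2 and not in that of Gpx1. The windows lie at chr17:13007589-13007888 (plus strand) for Sod2 and chr9:108338830-108339129 (plus strand) for Gpx1.
Sod2: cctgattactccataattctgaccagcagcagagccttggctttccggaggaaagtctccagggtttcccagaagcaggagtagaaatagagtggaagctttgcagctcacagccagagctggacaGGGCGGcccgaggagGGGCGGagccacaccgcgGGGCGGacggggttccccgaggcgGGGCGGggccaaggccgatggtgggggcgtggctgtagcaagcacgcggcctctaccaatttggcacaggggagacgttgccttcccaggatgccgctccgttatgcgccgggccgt
Gpx1: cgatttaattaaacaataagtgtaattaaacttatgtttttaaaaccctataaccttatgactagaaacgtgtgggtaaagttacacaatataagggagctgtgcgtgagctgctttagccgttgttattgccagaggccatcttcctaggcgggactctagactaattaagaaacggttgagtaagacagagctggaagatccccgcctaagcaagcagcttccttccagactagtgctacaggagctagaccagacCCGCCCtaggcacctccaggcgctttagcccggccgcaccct
A match is a description of these letters, and no factor's binding was measured.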

How the data were processed

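RNA was sequenced from 12 heart libraries, 3 in each of 4 groups of genotype and fraction taken from the labels. Tools in the submitters' processing notes are STAR and DESeq2, with build mm10 and no versions. Annotation, gene counting and strand use were not given in the sources used here. For either fraction the authors deposited a signal value per gene and library whose steps are those of gene counts divided by a size factor per library. Per the file headers the tables also hold the authors' log2 fold changes, p-values and a score (the Wald statistic). Of the values, 100% were whole multiples of 1 read (tolerance 0.01 reads), which gave back the reads. Symbols matched 1 gene of GENCODE M21 for 93.7%.

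The main test was limma 3.58.1 (R 4.3.3) within each fraction, on log2(value + 1), for genes averaging 10 or more. Fractions and their interaction were fitted on log2(CPM + 1), from recovered reads with TMM factors and a mean of 1 CPM or more. Fold changes on these scales understate those of low genes. P-values were adjusted by Benjamini-Hochberg over all tested genes (threshold 0.05). On recovered reads edgeR 4.0.16 called 12 genes in CM and 1446 in NonCM, and DESeq2 1.42.0 called 23 and 633. The smallest exact permutation p (two-sided) of 3 against 3 is 0.1. Limma and edgeR were also run on simulated counts with known changes, which held no shift in cell types, and the outcome is not reported here.

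Members and lists were chosen with earlier results of these data known. Named were Wls, the members, up to 4 called genes per list and fraction (otherwise the 2 of smallest p in NonCM), the 5 genes most like Nnt with a mean of 50 or more, and tested neighbours within 1 Mb; some results under this rule are not reported here. Alternatives were other scalings, filters, pseudocounts and tools, each library or replicate 3 left out, and a marker share as covariate. In NonCM that was the share of cardiomyocyte markers. In CM it was the summed share of fibroblast, macrophage, endothelial, and smooth muscle and pericyte markers. Interaction fits without single libraries and edgeR without replicate 3 were added after the data were seen.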

Additional observations from a re-analysis of the deposited data

Results flagged for a closer look

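The genotype difference of Wls itself differed between fractions in the joint limma fit, by 1.10 on the log2 scale, NonCM minus CM (SE 0.20, adjusted p = 0.0311). Wls was lower by more in CM (−1.45) than in NonCM (−0.28), and the NonCM fraction also holds cardiomyocyte RNA. The call was lost without replicate 3 of each group (1.31, adjusted p = 0.767) and held in 5 of the 12 fits that left out 1 library, whose values ranged from 0.88 to 1.23. It was lost without CM control replicate 1, 2 or 3, CM Wls fl/fl replicate 3, NonCM control replicate 3, or NonCM Wls fl/fl replicate 2 or 3.

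The difference of Sod2 between fractions was −0.29 (SE 0.07, limma adjusted p = 0.0464), with a genotype difference of −0.15 in NonCM and 0.12 in CM. Sod2 was chosen with the CM libraries in view, so this is no independent evidence. The call was lost by edgeR (−0.28, adjusted p = 0.0718), without TMM factors (−0.23, adjusted p = 0.137) and without replicate 3 of each group (−0.27, adjusted p = 0.767). It held in 3 of the 12 fits that left out 1 library, namely without CM Wls fl/fl replicate 1, NonCM Wls fl/fl replicate 1 or NonCM control replicate 1, and the values over the 12 ranged from −0.33 to −0.27. Its direction was the same in all of these. Groups of 3 libraries were not examined for single outlying values.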

How the results depend on the processing

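The number of genes called in CM (11) was 41 with no filter, 23 by DESeq2 and 17 by limma-voom. It was 26 with the share of non-cardiomyocyte markers as covariate, and 2 without replicate 3 by limma and by edgeR. Nnt was the 1 member called higher there, and 0 were called without replicate 3 by limma or edgeR. In NonCM, 598 genes were called, against 1446 by edgeR, 1477 by limma-voom, 912 with the marker covariate, and 0 by limma or 27 by edgeR without replicate 3. Members called lower in NonCM (0) numbered 1 with a mean of 50 or more, 5 by edgeR and 6 by limma-voom. In the fraction comparison 6356 genes were called, and 3993 without replicate 3. In the interaction 193 genes were called, 34 without TMM factors and 1 without replicate 3, and members called lower (1) numbered 0 without TMM factors, by edgeR and without replicate 3. The causes were not tested.

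Leaving out each library in turn gave 5 to 18 called genes in CM (members higher 0 to 1), 73 to 1621 in NonCM (members lower 0 to 4), 5213 to 6789 between fractions (members lower 7 to 9), and 0 to 267 in the interaction (members lower 0 to 2).

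Of the values of Wls and the members 10 reversed under an alternative, all of them values that limma had not called. In CM, where leaving out a library gave −0.083 to 0.047 for Gsr, −0.029 to 0.11 for Txnrd2, −0.096 to 0.050 for Txn2 and −0.049 to 0.082 for Prdx3, these were Gsr without control replicate 2 (0.00065) or Wls fl/fl replicate 2 (0.047), Txnrd2 (−0.029) and Txn2 (0.018) without control replicate 1, Txn2 without Wls fl/fl replicate 1 (0.050), and Prdx3 without Wls fl/fl replicate 2 (−0.049). In NonCM the marker covariate, whose values did not overlap between the genotypes, turned Wls (0.058), Txnrd2 (0.23), Gpx1 (−0.43) and Cat (0.14). Of the other values 625 kept direction and side of the threshold, and with the same direction 32 lost and 26 gained it. Depth limits Txnrd2, Gsr and Gpx1 most, with 18, 25 and 70 reads in NonCM control replicate 1. No paired analysis was possible because the labels do not say which libraries share a heart.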
